A study of Mus musculus with 58 samples.

Results

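The circadian clock genes *Arntl*, *Npas2*, *Clock*, *Per1*, *Per2*, *Per3*, *Cry1*, *Cry2*, *Nr1d1* and *Dbp* were looked up by symbol in the result tables of the EC (entorhinal cortex) and the PVC (primary visual cortex). All 10 were listed in both tables, out of 31246 genes per table. The tissue came from male *APOE* targeted replacement mice on C57Bl/6, aged 14 to 15 months, in which human *APOE* stands in place of the mouse gene and is driven by the mouse promoter. Each region was represented by 10 *APOE3/3* libraries and 19 *APOE3/4* libraries, and the same 29 animal numbers occurred in both regions. Every mouse carried at least one copy of human *APOE3* and none carried mouse *Apoe*. The mice of the whole study came from separate colonies, and the paper does not say which of these gave the sequenced mice. Poly(A)+ RNA was sequenced from the dissected tissue. The values described here are the authors' mean normalized counts, each of which is 1 mean over the 29 libraries of a region, with both genotypes together. No value of a single mouse was used, so no spread between mice and no test can be given, and *APOE3/4* was not compared with *APOE3/3*. The time of day at which the tissue was taken is not given in the sources used here.

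The circadian clock is a feedback loop of transcription that runs in nearly every cell, the cortex included. BMAL1, the product of *Arntl*, pairs with CLOCK or its paralog NPAS2 and switches on genes that hold an E-box. Among these genes are the Period and Cryptochrome genes, whose proteins then shut their own activator down. In a second loop REV-ERBα, the product of *Nr1d1*, represses *Arntl* while the ROR receptors activate it. DBP is an output factor that acts through a further DNA element, the D-box. Because *Per*, *Nr1d1* and *Dbp* messages peak at other hours than *Arntl* and *Npas2* messages, a mean level of any of them depends on the hour of sampling.

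The DNA elements of the loop can be read in the promoters of several of these genes. RefSeq promoter windows on GRCm38, from 250 bases before to 50 after each transcription start, were found for 9 of the 10 genes, *Per2* having no window. Stretches from 5 genes are shown because each carries an element through which one clock protein acts on another. They are written 5′ to 3′ on the strand of the gene, with the element in capitals. *Per1* (chr11:69098763-69098808, plus strand) has the E-box CACGTG starting 166 bases before the start. *Cry1* (chr10:85185089-85185153, minus strand) has the E-box variant AACGTG 79 bases and the E-box 60 bases before the start. *Per3* (chr4:151044796-151044890, minus strand) has the D-box TTATGTAA at 205 and again at 158 bases before the start. *Nr1d1* (chr11:98775380-98775425, minus strand) has the E-box variant 28 bases before the start. *Arntl* (chr7:113207531-113207557, plus strand) has TAGGTCA, the core bound by REV-ERB and ROR receptors, 31 bases into the transcript of its second listed start.
Per1: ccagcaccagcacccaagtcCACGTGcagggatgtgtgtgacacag
Cry1: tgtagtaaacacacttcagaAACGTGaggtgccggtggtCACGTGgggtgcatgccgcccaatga
Per3: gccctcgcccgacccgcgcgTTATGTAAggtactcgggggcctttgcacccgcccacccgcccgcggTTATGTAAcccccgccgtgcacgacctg
Nr1d1: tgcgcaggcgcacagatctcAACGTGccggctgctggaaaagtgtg
Arntl: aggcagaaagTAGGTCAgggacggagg

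The elements were searched as exact letters on both strands. Among the 27025 genes with a window, 8.09% held the E-box CACGTG, against 2 of the 9 clock genes, *Cry1* and *Per1*. The variant CACGTT, which reads AACGTG on the other strand, was held by 5.44% of all genes and by 3 of the 9, *Cry1*, *Cry2* and *Nr1d1*. The D-box, searched as TTATGTAA and TTACGTAA, was held by 1.23% of all genes and by 1 of the 9, *Per3*. The receptor core, searched as TAGGTCA and TGGGTCA, was held by 7.35% of all genes and by 1 of the 9, *Arntl*. The cAMP response element TGACGTCA was held by 2.03% of all genes and by none of the 9. These matches describe the letters of the windows, and binding was not measured.

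Within each region the clock genes covered a wide range of levels, with *Nr1d1* at the top and *Cry1* at the bottom by the length of all exons of a gene joined. Levels of different genes are compared as mean normalized counts per kilobase of this length, from the NCBIM37 annotation, and the order depends on the length taken. The tables of the regions were normalized separately and their means differ by a common factor of 1.83, the median EC over PVC ratio of 12097 genes with a mean of at least 100 in both. EC values are therefore divided by 1.83 wherever levels per kilobase or ratios of the regions are given, while means are given as deposited unless said to be rescaled. *Nr1d1*, which encodes the repressor of the second loop, had a level per kilobase of 1031 in the EC against 1346 in the PVC. It stood 7.83-fold above *Cry1* in the EC and 8.71-fold above it in the PVC. The order of the 10 genes was nearly the same in both regions, with a Spearman rho of 0.927 over the 10 genes, whose values in the 2 regions came from the same mice.

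**Figure D1:**
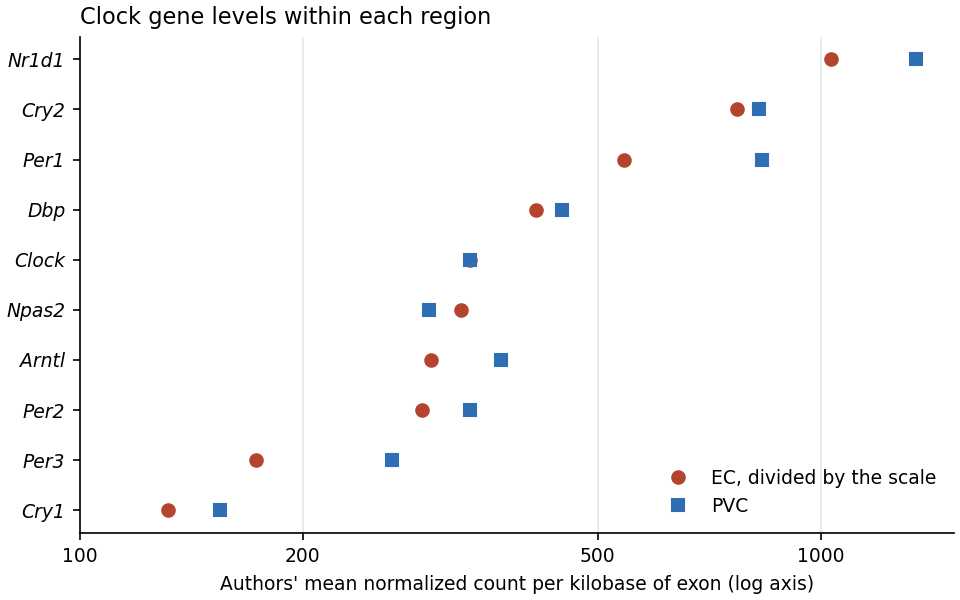
Authors' mean normalized count per kilobase of exon for the 10 clock genes on a log axis, with 1 point per gene and region (circles, EC divided by 1.83, and squares, PVC), ordered by the EC level. *Nr1d1* lies highest and *Cry1* lowest in both regions, and the points of *Clock* fall on each other.

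The Cryptochrome genes, whose proteins carry most of the repression of CLOCK and BMAL1, lay far apart. *Cry2* (chromosome 2 of NCBIM37, 92243803 to 92274200) had a mean normalized count of 8938 in the EC versus 5214 in the PVC. Its level per kilobase was 771 in the EC against 825 in the PVC. *Cry1* (chromosome 10, 84594447 to 84647799) had means of 728 and 466, and levels per kilobase of 132 and 155. *Cry2* thus made up 85.4% of the summed Cryptochrome level per kilobase in the EC versus 84.2% in the PVC, with *Cry1* the lower of the pair in both regions.

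Among the Period genes, whose proteins bring the Cryptochromes to the activator, *Per1* had the highest level. *Per1* (chromosome 11, 68908719 to 68923462) had a mean normalized count of 5605 in the EC against 4687 in the PVC. *Per2* (chromosome 1, 93312561 to 93355907) had means of 3108 and 1964, and *Per3* (chromosome 4, 150377761 to 150418774) had means of 3045 and 2538. Per kilobase, *Per1* made up 54.0% of the Period total in the EC versus 58.1% in the PVC. *Per2* made up 28.8% and 23.5%, and *Per3*, often described as the Period gene the core loop needs least, 17.2% and 18.4%. *Per2* was the one Period gene with a smaller share in the PVC. With the median transcript length *Per2* was at 0.744 of the *Per3* level in the EC and 0.564 of it in the PVC, and with the longest transcript at 0.795 of it in the PVC, while *Per1* stayed the highest of them with each length.

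The activators lay close together in the middle of the order. *Arntl* (chromosome 7, 120350979 to 120457636) had a mean normalized count of 1599 in the EC against 1081 in the PVC. *Clock* (chromosome 5, 76639992 to 76733817) had means of 5443 and 2970. *Npas2* (chromosome 1, 39250576 to 39420079), the paralog of *Clock* known from the forebrain, had means of 2869 and 1416. Per kilobase the activators measured 298 for *Arntl*, 336 for *Clock* and 326 for *Npas2* in the EC, and 370, 336 and 296 in the PVC. *Npas2* therefore made up 49.3% of the summed *Clock* and *Npas2* level in the EC versus 46.8% in the PVC. That share rests on the length, and with the median transcript length, which is 484 bases for *Npas2*, it was 89.7% and 88.8%. With no spread between mice, none of these neighbours can be said to differ.

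*Dbp* (chromosome 7, 52960458 to 52965525) held the fourth place in both regions, with a mean normalized count of 2228 in the EC against 1319 in the PVC and a level per kilobase of 412 and 448. *Nr1d1* (chromosome 11, 98629246 to 98636647) had means of 5909 and 4204. Against all genes with a mean of at least 10 and a length, the level per kilobase of *Nr1d1* lay at percentile 91.4 in the EC versus 93.3 in the PVC, and that of *Cry1* at percentile 47.7 and 47.8. The other clock genes lay between them, so that *Cry1* alone was under the middle of the expressed genes. The order of the genes rests on the choice of length, the top place included. With the longest transcript as length, 4 of the 10 genes kept their place in the EC against 3 in the PVC, and *Cry2* stood above *Nr1d1* in the EC. With the median transcript length, *Npas2* moved from place 6 to 1 in the EC and from 8 to 2 in the PVC. *Cry1* stayed last with every length tried, and *Nr1d1* stayed among the first 2 genes.

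Between the regions, the clock genes lay mostly on one side. After rescaling, 9 of the 10 genes had a lower mean in the EC than in the PVC, *Clock* by a margin that rounds to zero. The direction rests on the rescaling, as without it 94.5% of all genes, and 8 of these 10, had a mean over 25% higher in the EC. The median log2 ratio of EC over PVC of the 10 genes was −0.22 after rescaling, where the median of all 15642 genes with a mean of at least 10 in both regions was 0.02. Of all these genes 46.6% had a ratio below 0. As there is 1 mean per region, a mean over 25% higher in one region than in the other was taken as the limit for a call. *Per1*, *Per3* and *Nr1d1* were past this limit on the PVC side, which is 3 of 10 genes, as were 10.5% of all genes. None of the 10 was past it on the EC side, as were 15.3% of all genes. These ratios have no replicate check, and the genes are not independent of each other. Each mean joins both genotypes, so a genotype difference within a region would be part of these ratios, which was not tested.

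*Per1* and *Per3* had the lowest ratios. The mean of *Per1* was 3055 in the EC after rescaling and 4687 in the PVC, which is 1.53-fold higher in the PVC (log2 ratio −0.62). The mean of *Per3* was 1660 in the EC after rescaling and 2538 in the PVC, also 1.53-fold higher in the PVC (log2 ratio −0.61). Both lay under the 5th percentile of all genes, *Per1* at percentile 4.68 and *Per3* at 4.74. *Per2* was 1.16-fold higher in the PVC, at a log2 ratio of −0.21, inside the limit.

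*Nr1d1* was 1.31-fold higher in the PVC, with 3220 in the EC after rescaling and 4204 in the PVC (log2 ratio −0.38, percentile 8.59). *Arntl*, which REV-ERBα represses, lay on the same side and just inside the limit, 1.24-fold higher in the PVC (log2 ratio −0.31). *Cry1* was 1.17-fold, *Dbp* 1.09-fold and *Cry2* 1.07-fold higher in the PVC. *Clock* had 2966 in the EC after rescaling and 2970 in the PVC, a log2 ratio that rounds to zero. *Npas2* was the one gene with a higher mean in the EC, 1563 after rescaling against 1416 (log2 ratio 0.14). The genes whose products pair with each other were all inside the limit, *Arntl* on the PVC side, *Clock* at the middle and *Npas2* on the EC side.

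**Figure D2:**
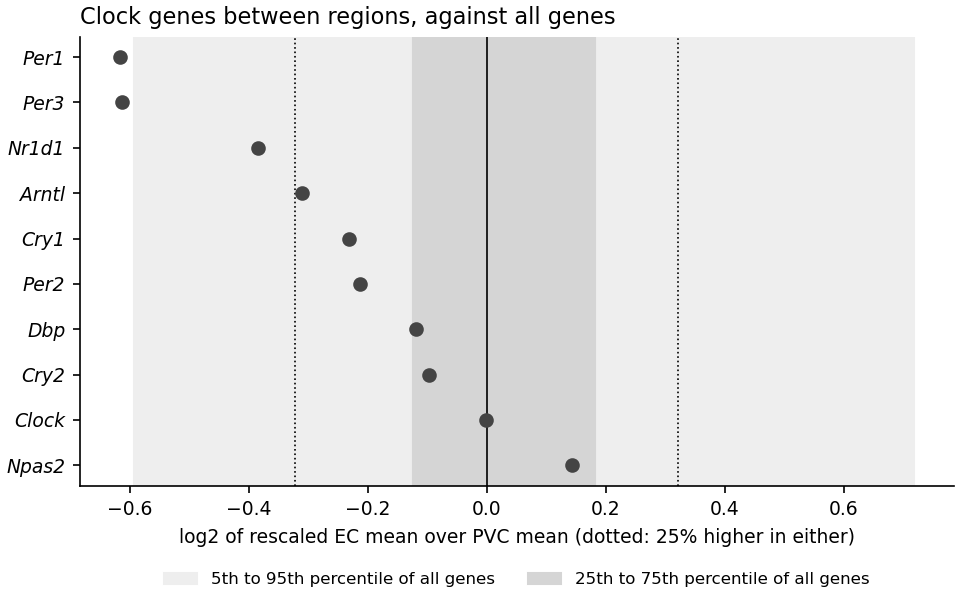
log2 ratio of the rescaled EC mean over the PVC mean for the 10 clock genes, 1 point per gene, on the spread of 15642 genes (light band, 5th to 95th percentile, and dark band, 25th to 75th), with dotted lines where a mean is 25% higher in one region. *Per1* and *Per3* lie below the 5th percentile of −0.59, and only *Npas2* lies above 0.

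The ratios of genes that share an element were spread. *Per1* and *Cry1*, whose windows hold the E-box shown above, had log2 ratios of −0.62 and −0.23. *Cry1*, *Cry2* and *Nr1d1*, which hold the variant, had −0.23, −0.10 and −0.38. The gene with D-boxes, *Per3*, was at −0.61, while *Dbp*, which encodes a factor that binds D-boxes, was at −0.12.

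Ratios between clock genes of one region need no scale between the regions. Per kilobase, *Per1* stood 1.66-fold above *Npas2* in the EC and 2.81-fold above it in the PVC, a ratio 1.69-fold larger in the PVC. The order of this pair turned with the median transcript length, by which *Per1* was at 0.235 of the *Npas2* level in the EC and 0.398 of it in the PVC, while the change of a ratio between the regions does not depend on length. Against *Clock*, *Per1* stood 1.62-fold higher in the EC and 2.48-fold higher in the PVC. Against *Cry2*, it was at 0.704 of the level in the EC and 1.01 of it in the PVC. Of the 10 clock genes *Per1* had the lowest region ratio and *Npas2* the highest, so this pair changed the most. By construction *Per1* was more abundant in the PVC in relation to any other of these genes. These changes restate the region ratios and are no separate result.

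Other ratios lay closer together in the regions. *Per1* stood 3.14-fold above *Per3* in the EC and 3.15-fold above it in the PVC. *Nr1d1* stood 3.46-fold above *Arntl* in the EC and 3.64-fold above it in the PVC. *Cry2* stood 5.86-fold above *Cry1* in the EC and 5.34-fold above it in the PVC. With the median transcript length these last ratios were larger, 8.48 and 8.92 for *Nr1d1* over *Arntl* and 17.5 and 15.9 for *Cry2* over *Cry1*. *Dbp* and *Per1*, both E-box targets in textbook accounts of the clock, went apart, with *Dbp* at 0.760 of the *Per1* level in the EC and 0.538 of it in the PVC. With the median transcript length *Dbp* was instead above *Per1*, 1.75-fold in the EC and 1.24-fold in the PVC.

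**Figure D3:**
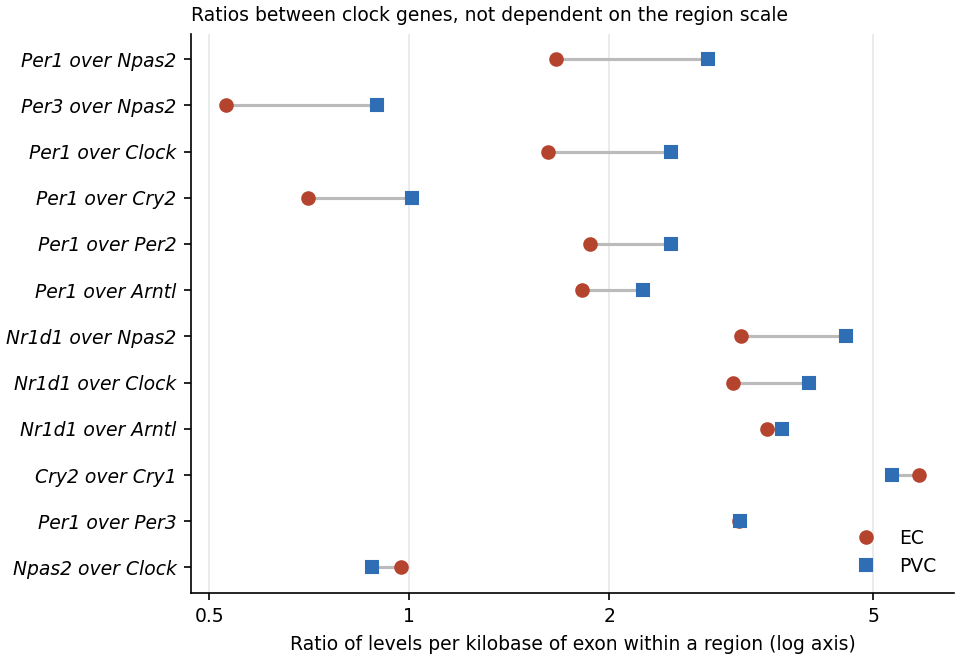
Ratio of the level per kilobase of exon of 1 clock gene to another within the EC (circles) and within the PVC (squares), on a log axis, with a line joining the regions. The ratios of *Per1* and *Per3* to *Npas2* are 1.69-fold larger in the PVC, while *Per1* over *Per3* is 3.14 in the EC versus 3.15 in the PVC.

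The other genes of the pathway were taken from a list of 28 genes ordered by role, which includes the 10. Of the 28 genes, 11 were past the 25% limit on the PVC side and 1 on the EC side, against the 10.5% and 15.3% of all genes. The median log2 ratio of the 28 was −0.22. The 18 genes other than the 10 gave 8 and 1, with a median of −0.21. The list is no independent support, as it was drawn up with earlier results of these data known.

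The 4 orphan nuclear receptors of the list were past the limit on the PVC side, as were 10.5% of all genes. *Nr1d2*, the paralog of *Nr1d1*, had 3265 in the EC after rescaling and 4336 in the PVC, a log2 ratio of −0.41 that lies next to the −0.38 of *Nr1d1*. *Rora*, an activator of *Arntl*, was at −0.33, just past the limit, and *Rorb* at −1.20. *Rorb* is also a marker of cortical layer 4. *Bhlhe40*, a repressor that competes for the E-box, was at −0.88, its paralog *Bhlhe41* at −0.23, and *Gm129*, a further repressor now named *Ciart*, at −0.58.

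Of the D-box factors, *Hlf* was at −0.71 and *Nfil3*, which opposes DBP at the D-box, at −0.45. *Dbp* and its relative *Tef* were both inside the limit, *Tef* at −0.11 with a mean of 21393 in the EC versus 12578 in the PVC before rescaling, the highest means of the list. *Arntl2*, the paralog of *Arntl*, was at −0.19. The 4 activators had no call in either direction, with *Arntl* just inside the limit. Most genes had none either, as 10.5% of all genes were past the limit on the PVC side and 15.3% on the EC side.

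The enzymes that act on the clock proteins were also looked up. Of the 5 genes for kinases of Period proteins or for their subunits, 1 was past the limit on the PVC side. This was *Csnk1e* at −0.33, next to its paralog *Csnk1d* at 0.02. *Gsk3b* was at 0.09. Of the 3 ubiquitin ligase subunits, none was past it on that side. *Fbxl21*, whose product acts on Cryptochromes, was at 0.44, the 1 gene of the list past the limit on the EC side, with means of 284 and 114 before rescaling. A grouping made after the values were seen gave 10 of 20 transcription factors and repressors past the limit on the PVC side, with a median of −0.32, and 1 of 8 kinases and ligase subunits, with a median that rounds to zero, where 10.5% of all genes were past it on that side. This contrast was not tested, and 1 of 8 is near the share of all genes.

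**Figure D4:**
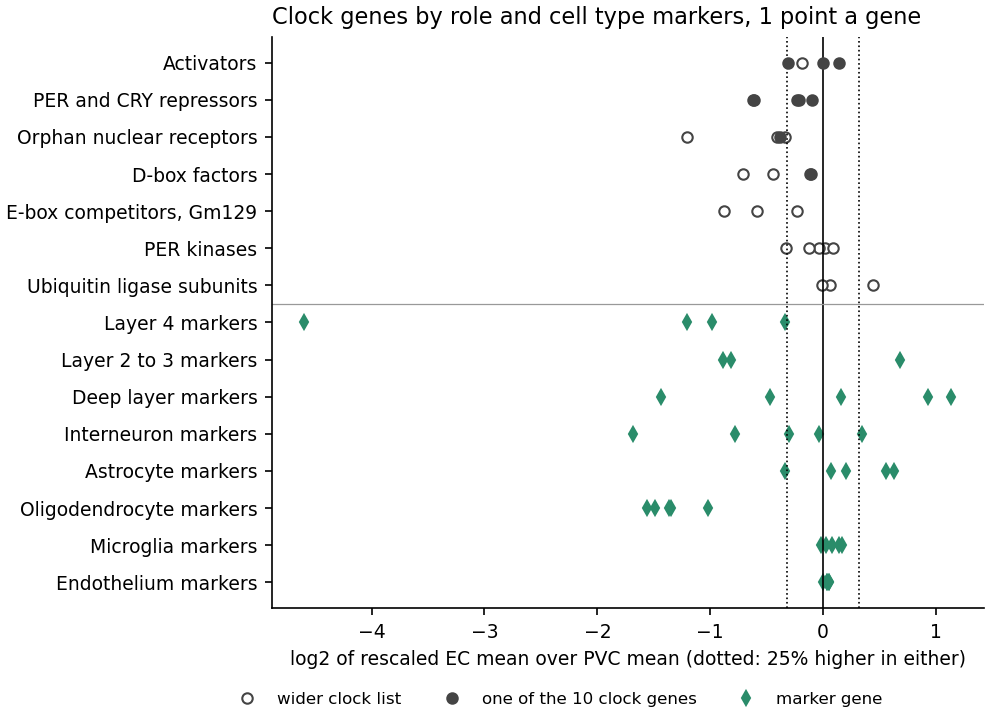
log2 ratio of the rescaled EC mean over the PVC mean, 1 point per gene, for the clock list by role (filled circles, the 10 genes, and open circles, the rest of the list) and for cell type markers (diamonds), with dotted lines where a mean is 25% higher in one region. The Period, Cryptochrome and D-box genes lie below 0, the ligase subunits lie near or above it, and all 5 oligodendrocyte markers lie between −1.56 and −1.02.

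The tissue itself differed between the regions in the markers of several cell types, where lower and higher in the EC again mean past the 25% limit. The cortical excitatory marker *Slc17a7*, the vesicular glutamate transporter, had means of 77884 and 38116 before rescaling, so it was well expressed in both regions. It does not check which region was dissected. Of the 5 excitatory markers 2 were lower in the EC, with ratios from −1.33 to 0.16. All 5 oligodendrocyte markers were lower in the EC, with log2 ratios from −1.56 to −1.02, and their summed level was 21834 in the EC after rescaling and 55916 in the PVC. All 4 layer 4 markers, *Rorb* of the clock list among them, were lower in the EC. Their ratios ran from −4.60 to −0.34, with sums of 1959 and 4369. The ranges of the oligodendrocyte and layer 4 markers reach below the ratios of *Per1*, *Per3* and *Nr1d1*. Of the 4 layer 2 to 3 markers, 3 were listed, and 2 of these were lower and 1 higher. Among the deep layer markers 2 were lower and 2 higher, and among the interneuron markers 2 were lower and 1 higher. All 5 meningeal fibroblast markers were higher in the EC, with ratios from 0.67 to 3.09. Of the astrocyte markers 1 was lower and 2 were higher. None of the 5 microglial and 5 endothelial markers passed the 25% limit, with ratios from −0.02 to 0.16 and from 0.00 to 0.06.

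Of the 5 hippocampal markers 3 reached a mean of 10 in both regions. Of these *Ociad2* was lower in the EC (log2 ratio −0.37) and *C1ql2* was 3.50-fold higher. The other two, *Dsp* with 19.5 in the EC after rescaling against 9.69 and *Tdo2* with 15.4 against 9.58, missed the minimum in the PVC alone and were also over 25% higher in the EC. Of the choroid plexus markers 2 did, and 1 of these, *Ttr*, was lower. The suprachiasmatic nucleus is the master clock of the hypothalamus. Of its 5 listed markers, 2 reached a mean of 10 in both regions. *Avp* had means of 11.9 and 4.72 before rescaling, and *Nms* and *Six6* stayed below 1 in both regions. The 2 markers that reached the minimum, *Rgs16* and *Prokr2*, are not particular to that nucleus. *Rgs16* had means of 577 and 369 before rescaling and *Prokr2* 264 and 28.2, with log2 ratios of −0.23 and 2.35. In bulk tissue, fewer cells of a type and less RNA per cell cannot be told apart, and the part of cell type makeup in the ratios of the clock genes was not tested.

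Exons of 3 of the 10 genes overlap those of a gene on the opposite strand. *Nr1d1* shares 263 bases with *Thra*, which is 8.42% of its exon length, *Dbp* shares 491 bases with *Sphk2*, which is 16.7%, and *Cry2* shares 295 bases with *D930015M05Rik*, which is 4.67%. The strand setting of the counting is not given in the sources used here, so reads of these stretches could have been lost or counted for the wrong gene. *Thra* is far more abundant than *Nr1d1*, with means of 45632 and 19521 before rescaling, and had a log2 ratio of 0.35. The part of *Thra* reads in the level and in the region ratio of *Nr1d1* was not tested.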

How the data were processed

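RNA from the EC and PVC of 29 mice per region was sequenced in 58 libraries, of which 7 were run several times for depth per the labels. The authors aligned reads to mm9 with TopHat2 2.0.6 and Bowtie2 2.0.2.0, counted them per gene with HTSeq on an NCBIM37 annotation and ran DESeq2 1.10.1 within each region. The signal used here is the mean normalized count deposited by the authors, which is the mean over a region's libraries of counts divided by size factors. The tables also hold the authors' log2 fold changes between genotypes with standard errors, Wald statistics and p-values, which were not used, so the genotype comparison was not analysed here. Depth per library and counting error cannot be had from these means, and the sums of the means were 49385488 for the EC and 27058393 for the PVC.

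Python 3.11.15, numpy 2.4.6, pandas 2.3.3 and matplotlib 3.10.9 were used. EC means were divided by 1.83, and the log2 ratio of EC over PVC was taken without a pseudocount for genes with a mean of at least 10 in both regions. The scale was recovered on simulated data with a known scale and equally many genes raised and lowered. The real genes past the limit are not balanced in this way, so this does not check the region ratios. Union exon lengths came from GENCODE on NCBIM37, which gave 1 entry for each clock gene and for 80.6% of all genes. Promoters came from RefSeq on GRCm38. Genes named were the 10, 28 genes of a wider list, genes overlapping them and cell type markers. Some genes of the wider list are not reported here. The members and lists were chosen with earlier results of these data known. Alternatives were 5 other scales, other minimum means, a pseudocount of 1, folds of 1.1 and 1.5, and other lengths.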

Additional observations from a re-analysis of the deposited data

How the results depend on the processing

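No paired analysis was possible because each region has only 1 mean over all its libraries, and for the same reason no library could be left out. Under the settings other than no rescaling, the log2 ratios of the 10 clock genes moved by at most 0.02. This was enough to make *Arntl* a call with the scale from genes with a mean of at least 10 (log2 ratio −0.33, 4 of the 10 and 12 of the 28 lower) and to end that of *Csnk1e* with the tables scaled to the same total (10 of the 28 lower). Without rescaling, which adds 0.88 to every log2 ratio by construction, the 9 of the 10 genes with a ratio below 0 turned, as did 21 of 23 such genes of the 28, to the EC side, with *Rorb* and *Bhlhe40* staying below 0. Of the genes past the limit, these were *Per1* (0.26), *Per3* (0.26), *Nr1d1* (0.49), *Nr1d2* (0.47), *Rora* (0.54), *Hlf* (0.17), *Nfil3* (0.43), *Gm129* (0.29) and *Csnk1e* (0.55). The median became 0.65 for the 10 genes and also for the 28, with 0 of the 10 lower and 8 higher in the EC, and 1 of the 28 lower and 22 higher, while 94.5% of all genes were higher. A fold of 1.1 gave 6 of the 10 lower and 1 higher, and 16 of the 28 lower and 2 higher, against 23.2% and 29.9% of all genes. A fold of 1.5 gave 2 of the 10 lower and 0 higher, and 5 of the 28 lower and 0 higher, against 5.13% and 7.06% of all genes. A minimum mean of 400, chosen after seeing the data, kept 25 of the 28, without *Arntl2*, *Nfil3* and *Fbxl21*, of which 10 were lower and 0 higher, against 8.75% and 7.54% of all genes. With the longest transcript as length 4 EC and 3 PVC genes kept their place, and with the median transcript length 2 and 4 did. Differences between mice are not visible in means, which limits every ratio given.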
